A study of Homo sapiens with 12 samples.

Results

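The genes described here are H19 and 9 other human imprinted genes, 10 of the 24528 genes in the deposited table, found in it by their symbols. H19 was chosen for its level in the double knockdown, which lay above the level given by adding the changes of the single knockdowns. Its values are therefore given as a description, with no test. The other members are IGF2, IGF2R, GRB10, PHLDA2, CDKN1C, KCNQ1OT1, PEG10, MEST and PLAGL1. RNA was sequenced from MIA PaCa-2, a long-established human pancreatic carcinoma cell line, in 12 libraries of 4 groups of 3. All cells were infected with lentivirus for 72 hours and then sorted on the fluorescent tag. In the double knockdown the cells carried both a short hairpin RNA (shRNA) against Musashi1, on a virus marked with GFP, and one against Musashi2, on a virus marked with Tomato Red. The Msi1 knockdown and the Msi2 knockdown cells carried the Musashi1 or the Musashi2 shRNA, and the control shRNA cells a scrambled shRNA. For the control cells, neither tag nor gate is given in the sources used here.

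An imprinted gene is transcribed mainly from the allele of 1 parent. The parental alleles differ in DNA methylation laid down in the germ line. Many imprinted genes act on growth, and those expressed from the father's and from the mother's allele often act in opposite directions. H19 and IGF2 lie next to each other on chromosome 11 and share enhancers: the mother's allele yields the long noncoding RNA H19, and the father's allele yields the growth factor IGF2. Musashi1 and Musashi2 are RNA-binding proteins that recognise short motifs with a UAG core and act on the stability and translation of their targets. The table has no allele information, so parental origin was not measured here, and whether each member is imprinted in this line is not known. In bulk RNA, fewer cells that express a gene and less RNA per cell cannot be told apart.

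H19 RNA is the host of the microRNA pair miR-675, and MEST hosts miR-335 in an intron. The 4 mature sequences from RefSeq (GRCh38.p14) are shown because they are the part of each host that acts on other RNAs. The seed, bases 2 to 8, is in capitals, and no seed is shared.
hsa-miR-675-5p: uGGUGCGGagagggcccacagug
hsa-miR-675-3p: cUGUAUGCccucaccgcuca
hsa-miR-335-5p: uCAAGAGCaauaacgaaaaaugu
hsa-miR-335-3p: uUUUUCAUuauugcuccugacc
In GRCh38.p14, miR-675-5p lies on the minus strand at chr11:1996800-1996822 and miR-675-3p at chr11:1996768-1996787. The 5p arm takes up bases 1054 to 1076 and the 3p arm bases 1089 to 1108 of the longest H19 transcript in GENCODE 29, so both are exonic. On the plus strand, miR-335-5p lies at chr7:130496126-130496148 and miR-335-3p at chr7:130496162-130496183, and neither was found in the longest MEST transcript. Mature microRNAs were not measured: MIR335 had 0 counts in all 12 libraries, and MIR675 was not analysed here.

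The UAG core, written TAG in DNA letters and searched on the transcript strand, stood 16 times in the 2348 bases of the longest H19 transcript. The longer motif GTAG, which holds this core, stood 4 times. The 30-base windows around these 4 places are shown because they are the H19 sequence most directly related to the proteins knocked down. The motif is in capitals.
H19 site 1: tgaggagtgtggaGTAGgcgcccaggcatc
H19 site 2: gggcaacggaggtGTAGctggcagcagcgg
H19 site 3: aggggtggccagcGTAGggtccagcacgtg
H19 site 4: cgcaattcatttaGTAGcaggcacaggggc
The motifs start at bases 248, 432, 719 and 831 of that transcript. H19 held 1.7 GTAG per kilobase (kb), against a median of 1.91 per kb (quartiles 1.17 and 2.66) over 14912 tested genes, of which 95.8% held at least 1. Among the other members the density ran from 0.895 per kb in IGF2, 1.05 in PHLDA2, 1.21 in IGF2R and 1.55 in CDKN1C to 2.63 per kb in KCNQ1OT1. A match to these letters is a description of the sequence, not a binding site.

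Total counts were 39853171 to 56122207 for double-knockdown, 26759360 to 38922394 for Msi1-knockdown, 39692117 to 53014534 for Msi2-knockdown and 10948191 to 35043671 for control shRNA libraries. MSI1, the gene of Musashi1, averaged 1.71 ± 0.28 CPM in double-knockdown, 1.84 ± 0.19 CPM in Msi1-knockdown, 6.14 ± 0.82 CPM in Msi2-knockdown and 4.53 ± 0.40 CPM in control libraries (SD, n = 3 each). MSI2 averaged 11.8 ± 0.62 CPM in double-knockdown, 54 ± 2.3 CPM in Msi1-knockdown, 15 ± 2.4 CPM in Msi2-knockdown and 82.7 ± 3.1 CPM in control libraries, and was thus also lower in the Msi1 knockdown (log2 change -0.61 ± 0.08 SE, edgeR adjusted p = 6.82e-06). CPM is the count scaled to a common library total with TMM factors. The libraries also differed along a trend seen among replicates of the same group: it held 54.1% of the variance within groups, and genes of long transcripts scored high on it (Spearman's rho = 0.41 over genes, which are no independent replicates). Trend scores were -1.54 to -1.06 for double-knockdown, 0.09 to 1.38 for Msi1-knockdown, -0.34 to 1.07 for Msi2-knockdown and -0.39 to 0.68 for control libraries. The double-knockdown libraries thus lay at one end with no overlap, and the score was also used as a covariate. The keratin genes KRT8 (1080 to 1650 CPM) and KRT18 (1110 to 1710 CPM) were high in all 12 libraries. So was the filament gene VIM (4840 to 6030 CPM). The keratin gene KRT19 stood at 43.2 to 80.9 CPM and the mesenchymal gene ZEB1 at 58.2 to 81.2 CPM. The epithelial genes EPCAM (1 to 13 counts) and CDH1 (6 to 37 counts) were near 0. Among mesenchymal genes, CDH2 (0 to 4 counts) was also near 0, and FN1 was low (1.24 to 3.07 CPM). The 8 blood cell markers summed to 3.13 to 4.19 CPM in double-knockdown, 3.98 to 4.58 CPM in Msi1-knockdown, 3.51 to 4.1 CPM in Msi2-knockdown and 3.6 to 3.94 CPM in control libraries, of which 4 were tested; LYZ had 16 to 103 counts, PTPRC 0 to 4, and CD3E was at 0 in every library. The 10 fibroblast markers summed to 557 to 650 CPM in double-knockdown, 668 to 811 CPM in Msi1-knockdown, 783 to 894 CPM in Msi2-knockdown and 611 to 747 CPM in control libraries. This sum came mainly from COL1A2 (285 to 486 CPM) and COL3A1 (199 to 414 CPM), while FAP stood at 0 to 1 counts. The 6 endothelial markers summed to 36.8 to 38.7 CPM in double-knockdown, 47 to 55.1 CPM in Msi1-knockdown, 34.9 to 35.8 CPM in Msi2-knockdown and 31 to 31.6 CPM in control libraries, mainly from CDH5 (5.94 to 33.6 CPM) and EMCN (15.3 to 24.3 CPM), while TEK stood at 0 to 3 counts. PECAM1 (10 to 36 counts), VWF (4 to 22) and KDR (0 to 14) were also low. The endothelial sum was highest in the Msi1 knockdown, where H19 was lowest. The part of these markers in the results was not tested.

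Between genes, levels are comparable only per length. On that scale H19 averaged 7.34 CPM per kb in double-knockdown, 3.6 in Msi1-knockdown, 7.18 in Msi2-knockdown and 9.15 in control libraries. In control cells the members ran in the order IGF2R (27.5 CPM per kb), PHLDA2 (14.4), H19 (9.15), GRB10 (6.61), IGF2 (2.89), CDKN1C (1.59), PEG10 (1.46), MEST (0.618) and KCNQ1OT1 (0.252). This order was not the same in every group. In the double knockdown PHLDA2 (26.3 CPM per kb) was above IGF2R (22.6). In the Msi1 knockdown GRB10 (4.97 CPM per kb) was above H19 (3.6), and MEST (0.99) and PEG10 (0.974) were above CDKN1C (0.91). In the Msi2 knockdown PEG10 (1.91 CPM per kb) was above CDKN1C (1.85). The length used was the longest annotated transcript, which for KCNQ1OT1 is 91667 bases, and the isoforms expressed in this line are not known from the table.

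H19 was lowest in the Msi1 knockdown. It stood at 17.8, 15.7 and 18.1 CPM in the double-knockdown libraries, 9, 8.56 and 7.77 CPM in the Msi1-knockdown libraries and 19, 14.6 and 16.9 CPM in the Msi2-knockdown libraries, against 22.7, 18.2 and 23.5 CPM in the control libraries. The 3 Msi1-knockdown libraries were below the other 9, the double-knockdown libraries were all below the control libraries by a narrow margin, and the Msi2-knockdown libraries overlapped the double-knockdown and the control libraries. The counts behind these levels were 682 to 949 in double-knockdown, 214 to 340 in Msi1-knockdown, 756 to 866 in Msi2-knockdown and 262 to 811 in control libraries. Means were 17.2 ± 1.3 CPM for the double knockdown, 8.44 ± 0.62 CPM for the Msi1 knockdown, 16.8 ± 2.2 CPM for the Msi2 knockdown and 21.5 ± 2.9 CPM for the control (SD, n = 3 each). The order of the groups, low to high, was Msi1 knockdown, Msi2 knockdown, double knockdown and control, and the middle groups did not differ beyond their spread.

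**Figure D1:**
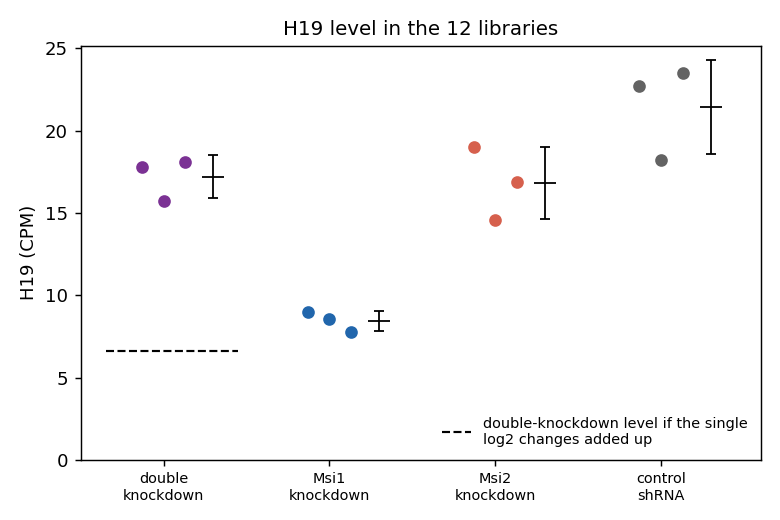
H19 level in CPM (vertical axis, linear from 0) in each of the 12 libraries by group; points are libraries, the cross bars give the mean ± SD of 3 libraries, and the dashed line is the double-knockdown level if the log2 changes of the single knockdowns added up. The Msi1-knockdown libraries sit between 7.77 and 9 CPM, and the double-knockdown libraries between 15.7 and 18.1 CPM, all above the dashed line at 6.62 CPM.

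As log2 changes with SE, H19 differed from the control by -0.30 ± 0.10 in the double knockdown, -1.33 ± 0.11 in the Msi1 knockdown and -0.34 ± 0.10 in the Msi2 knockdown. The Msi1 value ranks 91st from the lowest among 15021 tested genes. The single changes sum to -1.67. From the mean log2 CPM of the groups, additivity gives 6.62 CPM in the double knockdown, where 17.2 CPM was measured. The difference, 1.36 ± 0.15 on the log2 scale or 2.57-fold, is the value for which H19 was chosen, and it ranks 78th from the highest. H19 in the double knockdown was 1.02 ± 0.11 higher on the log2 scale than in the Msi1 knockdown and 0.04 ± 0.10 higher than in the Msi2 knockdown. With the trend score as a covariate, the H19 changes were -0.54 ± 0.11 in the double and -1.17 ± 0.10 in the Msi1 knockdown against the control, and the excess over additivity was 0.92 ± 0.18.

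The 6 genes whose log2 levels were most like H19 over the 12 libraries, among 10544 genes with a mean of at least 5 CPM, were KIF1C (Pearson's r = 0.987), FAM53B (0.98), PCYT2 (0.98), HOMEZ (0.975), STRBP (0.973) and CCDC117 (0.973). These r describe 12 libraries that fall into 4 groups. KIF1C, a kinesin motor gene, averaged 161 ± 7.3 CPM in double-knockdown, 117 ± 4.3 CPM in Msi1-knockdown, 155 ± 8.5 CPM in Msi2-knockdown and 174 ± 15 CPM in control libraries. CCDC117 averaged 89.3 ± 3.4 CPM in double-knockdown, 59.7 ± 2.5 CPM in Msi1-knockdown, 92.7 ± 4.3 CPM in Msi2-knockdown and 101 ± 7.6 CPM in control libraries (SD, n = 3 each). Among the members, r with H19 was 0.85 for CDKN1C, 0.83 for GRB10, 0.79 for PEG10, 0.58 for IGF2, 0.11 for PHLDA2, -0.51 for IGF2R, -0.69 for MEST and -0.71 for KCNQ1OT1. The r of CDKN1C lay at the 94.5th percentile of all genes compared and that of KCNQ1OT1 at percentile 8.66. CDKN1C and MEST averaged under 5 CPM in every group and were not themselves among the genes compared. None of these members had an r as high as those 6 genes.

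For the other members, the quasi-likelihood test of edgeR was used, with p adjusted by Benjamini-Hochberg over all 15021 tested genes and a threshold of 0.05. Of the 9 other members, 8 passed the filter on low counts, and PLAGL1 did not. These members were chosen with earlier results of these data known, which the p-values do not take into account. In the double knockdown 3 of the 8 were higher than in the control (IGF2, MEST and PHLDA2), 2 were lower (IGF2R and GRB10) and 3 did not pass. Over all tested genes 26.6% were higher and 25.3% lower in that comparison, 51.9% in all. In the Msi1 knockdown 3 were higher (IGF2R, KCNQ1OT1 and MEST), 4 lower (IGF2, CDKN1C, PEG10 and GRB10) and 1 did not pass, beside a background of 39.3% (18.5% higher and 20.9% lower). In the Msi2 knockdown 5 were higher (IGF2, IGF2R, PEG10, MEST and PHLDA2), 1 lower (GRB10) and 2 did not pass, beside 30.3% (16.7% higher and 13.6% lower). With 8 genes, counts of 5, 7 and 6 calls describe these genes and do not set imprinted genes apart from others. The median log2 change of the 8 was 0.21 in the double, -0.04 in the Msi1 and 0.34 in the Msi2 knockdown, where the median of all tested genes was -0.02, 0 and 0. The 3 comparisons share the control libraries. Without 1 library the calls in the double knockdown numbered 3 (without double-knockdown replicate 3, control replicate 1 or control replicate 3), those in the Msi1 knockdown 4 (without control replicate 1), and those in the Msi2 knockdown 3 (without Msi2-knockdown replicate 1 or control replicate 3) or 2 (without control replicate 1).

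**Figure D2:**
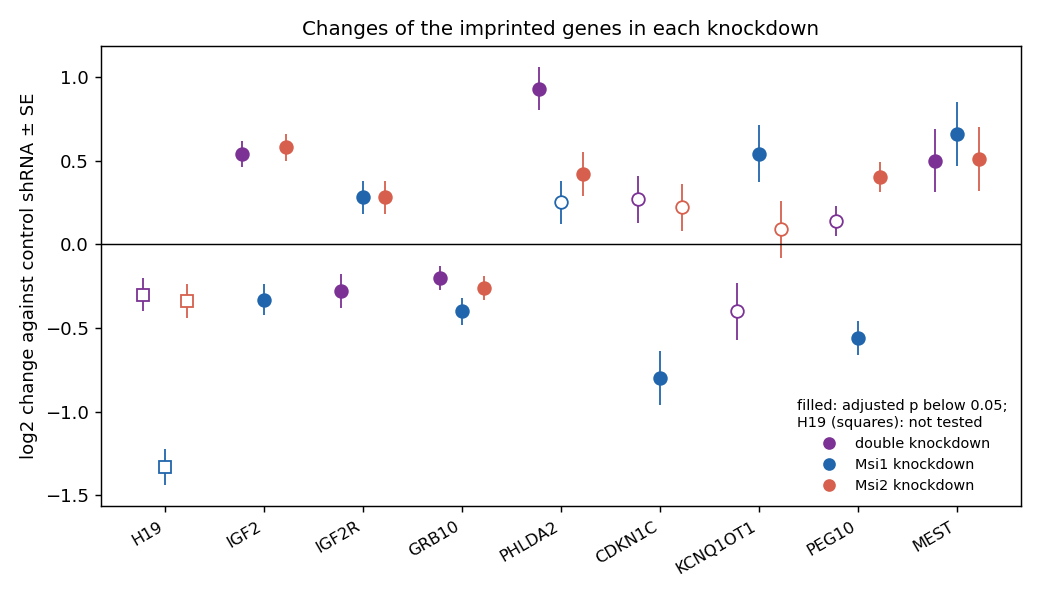
Log2 change ± SE against control shRNA (vertical axis) of H19 and the 8 other tested imprinted genes in the double, Msi1 and Msi2 knockdown; filled points have an edgeR adjusted p under 0.05, and H19 (open squares) was not tested. IGF2, CDKN1C and PEG10 lie below 0 in the Msi1 knockdown and above 0 in the other knockdowns, with the CDKN1C points and the double-knockdown point of PEG10 above 0 being open, while GRB10 lies below 0 and MEST above 0 in all 3.

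IGF2, the insulin-like growth factor 2 of fetal growth, was higher in the double and in the Msi2 knockdown and lower in the Msi1 knockdown. It stood at 23.3, 22 and 24.9 CPM in the double-knockdown libraries, 11.5, 13.2 and 13.6 CPM in the Msi1-knockdown libraries and 25.1, 24.0 and 22.8 CPM in the Msi2-knockdown libraries, against 14.7, 16.8 and 16.9 CPM in the control libraries. No knockdown library overlapped the control, and the double and the Msi2 knockdown overlapped each other. The log2 change against the control was 0.54 ± 0.08 in the double knockdown (SE; edgeR adjusted p = 1.99e-05), -0.33 ± 0.09 in the Msi1 knockdown (0.00476) and 0.58 ± 0.08 in the Msi2 knockdown (2.43e-05). These 3 calls held under all 22 alternatives, including the trend covariate (0.69 in the double, -0.41 in the Msi1 and 0.56 in the Msi2 knockdown).

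The double knockdown differed from the Msi1 knockdown in IGF2 by 0.87 ± 0.08 on the log2 scale (edgeR adjusted p = 3.3e-07). Its difference from the Msi2 knockdown was -0.04 ± 0.08 (adjusted p = 0.719), with a 95% interval of -0.21 to 0.14. A difference within that interval remains possible. The reads of the antisense gene IGF2-AS cannot be told apart from those of IGF2 without strand, which the sources used here do not give, but IGF2-AS held at most 12 counts in any library and the readthrough gene INS-IGF2 at most 1.

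IGF2 and H19 share enhancers, so their ratio of counts was taken in each library. It was 1.31, 1.4 and 1.37 in double-knockdown, 1.28, 1.54 and 1.75 in Msi1-knockdown and 1.32, 1.64 and 1.35 in Msi2-knockdown libraries, against 0.649, 0.926 and 0.718 in control libraries. All 9 knockdown libraries were above all 3 control libraries, and the knockdown groups overlapped each other. The means were 1.36 ± 0.046 for the double knockdown, 1.52 ± 0.23 for the Msi1 knockdown, 1.44 ± 0.18 for the Msi2 knockdown and 0.764 ± 0.14 for the control (SD, n = 3 each). Because H19 was chosen on these libraries the ratio has no test. In the Msi1 knockdown both genes were below the control, and H19 by more. In the other knockdowns IGF2 was above and H19 below it.

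**Figure D3:**
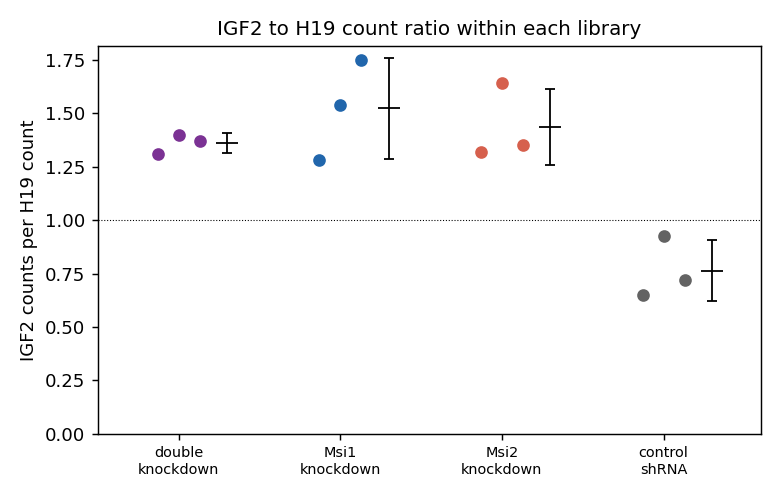
IGF2 counts per H19 count (vertical axis, a ratio with no unit) in each of the 12 libraries by group; points are libraries and cross bars the mean ± SD of 3 libraries, and the dotted line marks equal counts. The 9 knockdown libraries lie between 1.28 and 1.75 and the 3 control libraries between 0.649 and 0.926.

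IGF2R, the receptor that binds IGF2 and carries it to lysosomes for breakdown, was lower in the double knockdown and higher in both single knockdowns. It stood at 305, 310 and 339 CPM in the double-knockdown libraries, 384, 513 and 515 CPM in the Msi1-knockdown libraries and 453, 515 and 437 CPM in the Msi2-knockdown libraries, against 373, 425 and 361 CPM in the control libraries. The double-knockdown libraries were below all others, the Msi2-knockdown libraries were above all control libraries, and 1 Msi1-knockdown library was within the control range. The log2 change against the control was -0.28 ± 0.10 in the double (edgeR adjusted p = 0.0233), 0.28 ± 0.10 in the Msi1 (0.0292) and 0.28 ± 0.10 in the Msi2 knockdown (0.0408). The double knockdown was lower than the Msi1 knockdown by a log2 of -0.57 ± 0.10 (edgeR adjusted p = 0.000133) and than the Msi2 knockdown by -0.56 ± 0.10 (0.000193).

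IGF2R, whose longest transcript has 14044 bases, ran closely with the library trend. With the trend score as a covariate its double-knockdown change was 0.05 against the control (edgeR adjusted p = 0.514), 0.00 against the Msi1 knockdown (0.993) and -0.15 against the Msi2 knockdown (0.0904), its Msi1 change was 0.05 (0.458), and its Msi2 change was 0.21 (0.000162). The 3 calls against the control were also each lost without single libraries: the double-knockdown call without double-knockdown replicate 1 (adjusted p = 0.0975) or 2 (0.0619) or control replicate 2 (0.0953) and with the transcript length correction (-0.05, 0.578), the Msi1 call without Msi1-knockdown replicate 2 (0.129) or 3 (0.113) or control replicate 1 (0.0978) or 3 (0.104), and the Msi2 call without any 1 double-knockdown replicate, Msi2-knockdown replicate 1 or 2 or control replicate 1 or 3 (0.0527 to 0.159). The Msi2 call was also lost with upper-quartile scaling (0.0783) and under the stricter filter (0.0864).

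GRB10, an adaptor that binds the insulin and IGF1 receptors and dampens their signal, was lower in all 3 knockdowns. It stood at 31.7, 31.6 and 29.5 CPM in the double-knockdown libraries, 28.1, 28.2 and 24.5 CPM in the Msi1-knockdown libraries and 29.7, 29.4 and 30 CPM in the Msi2-knockdown libraries, against 36.7, 32.0 and 38.9 CPM in the control libraries. Every knockdown library was below every control library. The log2 change was -0.20 ± 0.07 in the double knockdown (edgeR adjusted p = 0.0287), -0.40 ± 0.08 in the Msi1 knockdown (0.000333) and -0.26 ± 0.07 in the Msi2 knockdown (0.0113). The Msi1 call held under all 22 alternatives. The double-knockdown call was lost without double-knockdown replicate 3 (0.0853), control replicate 1 (0.118) or control replicate 3 (0.0964), with thinned libraries (0.0845) and with the transcript length correction (-0.09, 0.348), and the Msi2 call without control replicate 1 (0.0613) or 3 (0.0511). The double knockdown was higher than the Msi1 knockdown by 0.20 ± 0.07 (edgeR adjusted p = 0.0304), a call lost without double-knockdown replicate 1 (0.0862) or 2 (0.127) or Msi1-knockdown replicate 2 (0.055) or 3 (0.204), and -0.01 with the trend covariate (0.984). Its difference from the Msi2 knockdown was 0.06 ± 0.07 (0.522).

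The next 3 genes lie in the second imprinted domain of the same chromosome region, next to that of H19 and IGF2. PHLDA2, a small protein with a pleckstrin homology domain that restrains placental growth in mice, was highest in the double knockdown. It stood at 26.5, 24.8 and 24.1 CPM in the double-knockdown libraries, 15.7, 15.8 and 15.7 CPM in the Msi1-knockdown libraries and 18.8, 14.5 and 19.6 CPM in the Msi2-knockdown libraries, against 11.1, 12.7 and 17.6 CPM in the control libraries. The double-knockdown libraries were above the other 9, and both single knockdowns overlapped the control. The log2 change was 0.93 ± 0.13 in the double knockdown (edgeR adjusted p = 1.06e-05), the 283rd highest of 15021 genes, and this call held under all 22 alternatives. It was 0.25 ± 0.13 in the Msi1 knockdown (0.136) and 0.42 ± 0.13 in the Msi2 knockdown (0.0196). Control replicate 3 was the highest control library, and without it the Msi1 value was 0.41 (0.00949). The Msi2 call was lost without Msi2-knockdown replicate 1 (0.078) or 3 (0.0623) or control replicate 1 (0.19) or 2 (0.0962), with thinned libraries (0.0958) and in a fit of the compared groups alone (0.117). The double knockdown was also higher than the Msi1 knockdown, by 0.68 ± 0.12 (edgeR adjusted p = 0.000166), and than the Msi2 knockdown, by 0.52 ± 0.12 (0.0016). With the trend covariate these were 0.30 (0.485) and 0.25 (0.323). The longest PHLDA2 transcript is short, with 955 bases.

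CDKN1C, an inhibitor of cyclin-dependent kinases, was low throughout, with 35 to 218 counts per library, and fell in the Msi1 knockdown. It stood at 3.8, 3.71 and 3.63 CPM in the double-knockdown libraries, 1.76, 1.79 and 1.74 CPM in the Msi1-knockdown libraries and 3.59, 2.89 and 4.26 CPM in the Msi2-knockdown libraries, against 3.31, 2.79 and 3.15 CPM in the control libraries. The Msi1-knockdown libraries were below the other 9. The log2 change was 0.27 ± 0.14 in the double knockdown (edgeR adjusted p = 0.122), -0.80 ± 0.16 in the Msi1 knockdown (0.000587) and 0.22 ± 0.14 in the Msi2 knockdown (0.283). With all libraries thinned to the smallest total, the Msi1 value was -0.46 (0.174). The double knockdown was higher than the Msi1 knockdown by 1.07 ± 0.15 (edgeR adjusted p = 1.47e-05), or 0.53 with the trend covariate (0.221). Its difference from the Msi2 knockdown was 0.05 ± 0.13 (0.753). For H19, IGF2, PEG10, GRB10 and CDKN1C alike, the 3 Msi1-knockdown libraries were below the other 9. Non-overlap in either direction was common among all tested genes. The Msi1-knockdown libraries did not overlap the control in 47.2% of them, the double knockdown in 63.6% and the Msi2 knockdown in 47.6%. These shares are for 1 pair of groups at a time. The share of all tested genes with the 3 Msi1-knockdown libraries below the other 9 was not computed. The pattern therefore describes these genes and does not set them apart, and H19 was chosen on these libraries.

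KCNQ1OT1, the long noncoding RNA that silences CDKN1C and PHLDA2 in the same domain on the father's allele, was highest in the Msi1 knockdown. It stood at 15.0, 19.5 and 18.0 CPM in the double-knockdown libraries, 26.7, 38.9 and 34.8 CPM in the Msi1-knockdown libraries and 23.8, 29.9 and 19.8 CPM in the Msi2-knockdown libraries, against 20.6, 25 and 23.6 CPM in the control libraries. The double-knockdown libraries were below the other 9 and the Msi1-knockdown libraries above the control, while the Msi2-knockdown libraries spanned the control range. The log2 change was -0.40 ± 0.17 in the double knockdown (edgeR adjusted p = 0.0745), 0.54 ± 0.17 in the Msi1 knockdown (0.0242) and 0.09 ± 0.17 in the Msi2 knockdown (0.733). The double knockdown was lower than the Msi1 knockdown by -0.94 ± 0.17 (edgeR adjusted p = 0.000526) and than the Msi2 knockdown by -0.49 ± 0.16 (0.0291), a call lost without double-knockdown replicate 1 (0.101) or 3 (0.0544) or Msi2-knockdown replicate 2 (0.114) and 0.12 with the trend covariate (0.513).

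KCNQ1OT1 also ran with the library trend, and with the trend covariate its changes were 0.12 in the double knockdown (edgeR adjusted p = 0.398) and 0.23 in the Msi1 knockdown (0.026), with -0.12 between double and Msi1 (0.723). The double-knockdown value passed the threshold in a fit of the compared groups alone (0.000677), under the stricter filter (0.0292), with thinned libraries (0.0118) and without double-knockdown replicate 2 (0.0454), Msi1-knockdown replicate 2 (0.0466), or Msi2-knockdown replicate 2 (0.0272) or 3 (0.0376). The Msi1 call was lost without Msi1-knockdown replicate 2 (0.086) or 3 (0.0688) or control replicate 1 (0.0897), with no filter beyond 1 count (0.0647) and with the transcript length correction, where the value was 0.18 (0.078). With that correction the value between double and Msi2 was 0.03 (0.809). KCNQ1OT1 is antisense to KCNQ1, whose reads cannot be told apart from it without strand. KCNQ1 was at -0.25 ± 0.09 on the log2 scale in the Msi1 knockdown (edgeR adjusted p = 0.0302) and 0.25 ± 0.09 in the Msi2 knockdown (0.0307) against the control. Both KCNQ1 calls were lost with DESeq2 (0.06 each), in a fit of the compared groups alone (0.0691 and 0.0537), with thinned libraries (0.172 and 0.137) and without any 1 of the control replicates. The Msi1 call was also lost without Msi1-knockdown replicate 1 (0.061) or 2 (0.18), and the Msi2 call without Msi2-knockdown replicate 1 (0.0686) or 2 (0.103).

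**Figure D4:**
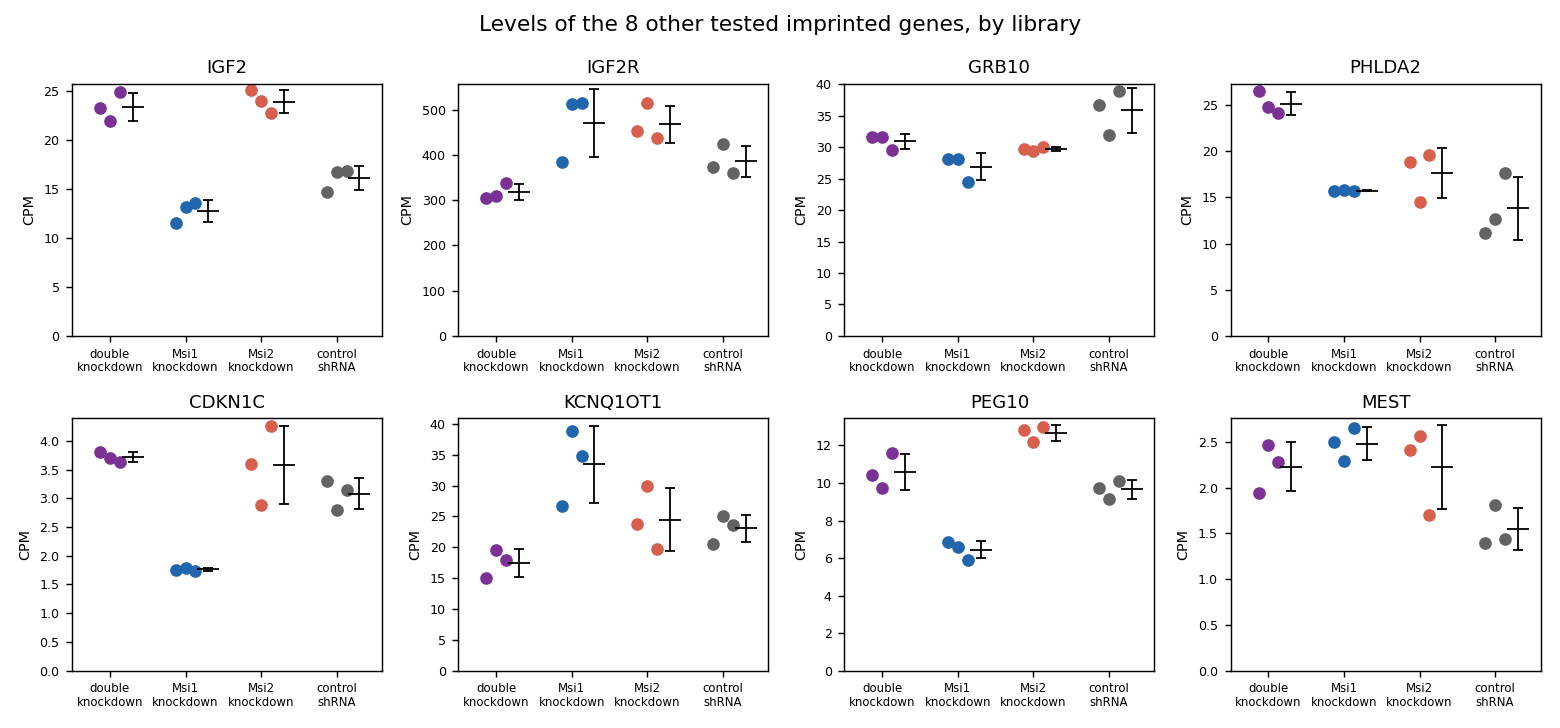
Levels in CPM (vertical axes, linear from 0, each with its own scale) of IGF2, IGF2R, GRB10, PHLDA2, CDKN1C, KCNQ1OT1, PEG10 and MEST in the 12 libraries by group; points are libraries and cross bars the mean ± SD of 3 libraries. The Msi1-knockdown libraries are lowest for IGF2, GRB10, CDKN1C and PEG10 and the double-knockdown libraries highest for PHLDA2.

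**Figure D5:**
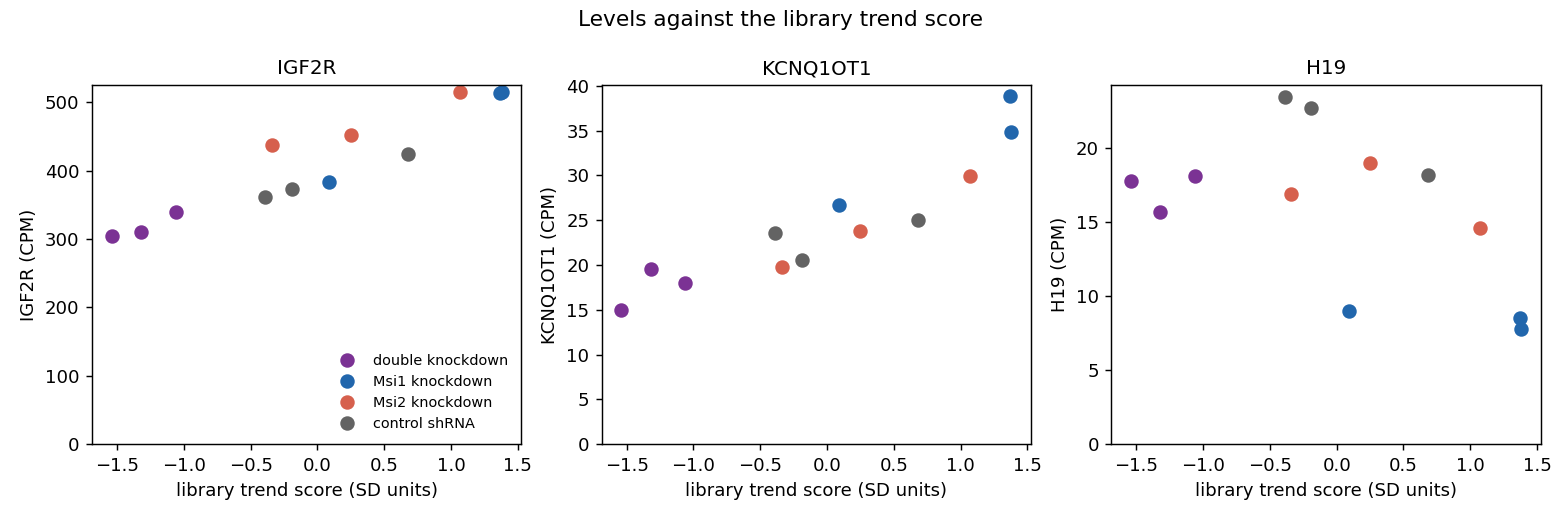
Levels of IGF2R, KCNQ1OT1 and H19 in CPM (vertical axes, linear from 0) against the library trend score in SD units (horizontal axis); each point is 1 of the 12 libraries, coloured by group. IGF2R and KCNQ1OT1 are low in the double-knockdown libraries, whose scores are -1.54 to -1.06, and high in libraries with scores above 1, while H19 is at 9 CPM or less in all 3 Msi1-knockdown libraries at scores of 0.09 to 1.38.

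PEG10, a gene derived from a retrotransposon, expressed from the father's allele and needed for placental development in mice, was lower in the Msi1 knockdown and higher in the Msi2 knockdown. It stood at 10.4, 9.72 and 11.6 CPM in the double-knockdown libraries, 6.83, 6.60 and 5.92 CPM in the Msi1-knockdown libraries and 12.8, 12.2 and 13 CPM in the Msi2-knockdown libraries, against 9.73, 9.13 and 10.1 CPM in the control libraries. The Msi1-knockdown libraries were below and the Msi2-knockdown libraries above all others, and the double knockdown overlapped the control. The log2 change was 0.14 ± 0.09 in the double knockdown (edgeR adjusted p = 0.196), -0.56 ± 0.10 in the Msi1 knockdown (9.66e-05) and 0.40 ± 0.09 in the Msi2 knockdown (0.00171). The Msi1 and Msi2 calls held under all 22 alternatives, and the double-knockdown value was 0.28 (0.017) with the transcript length correction. The double knockdown was higher than the Msi1 knockdown by 0.70 ± 0.09 (edgeR adjusted p = 6.91e-06) and differed from the Msi2 knockdown by -0.26 ± 0.08 (0.0133), a call lost without double-knockdown replicate 2 (0.0749) or Msi2-knockdown replicate 1 (0.05), with thinned libraries (0.0923) and with the transcript length correction (-0.13, 0.245).

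MEST, expressed from the father's allele and linked to growth in mice, was near the lower limit of what was tested, with 16 to 138 counts per library. It stood at 1.94, 2.47 and 2.28 CPM in the double-knockdown libraries, 2.50, 2.29 and 2.65 CPM in the Msi1-knockdown libraries and 2.41, 2.57 and 1.70 CPM in the Msi2-knockdown libraries, against 1.4, 1.81 and 1.44 CPM in the control libraries. Only 1 knockdown library, in the Msi2 group, was within the control range. The log2 change was 0.50 ± 0.19 in the double knockdown (edgeR adjusted p = 0.0328), 0.66 ± 0.19 in the Msi1 knockdown (0.0103) and 0.51 ± 0.19 in the Msi2 knockdown (0.0481). The double-knockdown call was lost without double-knockdown replicate 2 (0.119) or 3 (0.0739) or control replicate 1 (0.163) or 3 (0.0694), with DESeq2 (0.0524), with upper-quartile scaling (0.0618) and with thinned libraries (0.213). The Msi1 call was lost without control replicate 1 (0.0754) and with the trend covariate (0.47, 0.0527). The Msi2 call was lost without replicate 2 or 3 of the double or the Msi1 knockdown, Msi2-knockdown replicate 1 or 2 or control replicate 1 or 3 (0.0558 to 0.245). It was also lost with DESeq2 (0.0789), DESeq2 size factors (0.0525), upper-quartile scaling (0.0647), a fit of the compared groups alone (0.0819) and thinned libraries (0.0645). No difference between knockdown groups passed: double against Msi1 was -0.15 ± 0.17 (edgeR adjusted p = 0.442), and double against Msi2 was 0.00 ± 0.16 (0.988) with a 95% interval of -0.38 to 0.37.

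PLAGL1, a zinc finger transcription factor that acts on other imprinted genes in mice, was too low to test. Its counts were 0, 0 and 0 in the double-knockdown libraries, 4, 5 and 4 in the Msi1-knockdown libraries and 0, 1 and 2 in the Msi2-knockdown libraries, against 1, 2 and 1 in the control libraries. The 0 counts of the double knockdown allow a level of up to 0.0222 CPM over its 3 libraries (3 counts), where the pooled level was 0.125 CPM in Msi1-knockdown, 0.0207 CPM in Msi2-knockdown and 0.0518 CPM in control libraries. The exact 95% Poisson intervals of the totals, which cover counting error only and are not scaled for depth, were 0 to 3.69 counts for the double knockdown, 6.92 to 22.2 counts for the Msi1 knockdown, 0.619 to 8.77 counts for the Msi2 knockdown and 1.09 to 10.2 counts for the control. Since the groups differed in depth, these intervals of counts do not compare levels between the groups.

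Between the knockdowns, 7 of the 8 tested members other than H19 differed between the double and the Msi1 knockdown, 5 higher and 2 lower in the double, beside 56% of all tested genes (29.9% higher and 26.2% lower). Of the 8, 7 had groups that did not overlap, as did 63.6% of all tested genes. Between the double and the Msi2 knockdown 4 differed, 1 higher and 3 lower in the double, beside 45.2% of all tested genes (22.7% higher and 22.5% lower). In the Msi2 knockdown 3 (IGF2, CDKN1C and PEG10) were higher and 1 (KCNQ1OT1) lower than in the Msi1 knockdown, beside 41.1% (22.3% higher and 18.9% lower). On the log2 scale IGF2 was 0.91 ± 0.08 (edgeR adjusted p = 3.91e-08), CDKN1C 1.02 ± 0.15 (1.74e-05) and PEG10 0.97 ± 0.09 (5.73e-08) higher, and H19, with no test, 0.99 ± 0.11. The KCNQ1OT1 call (-0.45 ± 0.16, edgeR adjusted p = 0.0424) was lost without double-knockdown replicate 3, Msi1-knockdown replicate 2 or 3, Msi2-knockdown replicate 1 or 3 or control replicate 2 (0.0503 to 0.144). With the trend covariate 2 members differed between the double and the Msi1 knockdown and 1 between the double and the Msi2 knockdown.

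The value for which H19 was chosen, the difference between the double-knockdown change and the sum of the single changes, was also computed for the other members from all 12 libraries. It passed the threshold in 6 of 8, 3 above (IGF2, CDKN1C and GRB10) and 3 below (IGF2R, KCNQ1OT1 and MEST) the sum, beside 40.3% of all tested genes (21.3% above and 19.1% below). With 8 genes chosen when earlier results of these data were known, this count does not set imprinted genes apart from others. Taken from the mean log2 CPM of the groups, the sum of single changes would put CDKN1C at 2.03 CPM in the double knockdown. Its geometric mean there was 3.71 CPM. The sum would put GRB10 at 22.4 CPM, where the geometric mean was 30.9 CPM. It would put IGF2R at 565 CPM, where the geometric mean was 318 CPM, and KCNQ1OT1 at 34.7 CPM, where it was 17.4 CPM. IGF2R (-0.84 ± 0.14, edgeR adjusted p = 0.000221), GRB10 (0.46 ± 0.10, 0.00246), CDKN1C (0.86 ± 0.21, 0.00363) and KCNQ1OT1 (-1.03 ± 0.24, 0.00533) kept their calls in all 12 leave-outs. CDKN1C was at 0.42 with thinned libraries (edgeR adjusted p = 0.373) and KCNQ1OT1 at -0.15 with the transcript length correction (0.272), and neither passed there. The MEST call (-0.66 ± 0.25, edgeR adjusted p = 0.0427) was lost without double-knockdown replicate 1 or 3, Msi1-knockdown replicate 1 or 3, Msi2-knockdown replicate 1 or 2 or control replicate 1 or 3 (0.0519 to 0.142). It was also lost with DESeq2 (0.0683). The IGF2 call (0.29 ± 0.11, edgeR adjusted p = 0.0465) was lost without double-knockdown replicate 1 or 3, Msi1-knockdown replicate 1 or 2, Msi2-knockdown replicate 2 or 3 or control replicate 2 or 3 (0.0708 to 0.128). That call was also lost with DESeq2 (0.0524), upper-quartile scaling (0.0844), no filter beyond 1 count (0.0577), the stricter filter (0.0952) and thinned libraries (0.0814). PEG10 (0.30 ± 0.12, 0.0581) and PHLDA2 (0.26, 0.244) did not pass, though PEG10 did without double-knockdown replicate 2 (0.0449) or Msi1-knockdown replicate 1 (0.0401). With the trend covariate 1 of the 8 passed, IGF2 at 0.54 (0.034), and since the double-knockdown libraries had trend scores of their own, the trend and the excess cannot be fully told apart.

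Genes around the members were taken from fixed lists, whose counts of calls are to be read against the shares of all tested genes called, 51.9% in the double, 39.3% in the Msi1 and 30.3% in the Msi2 knockdown. Of 60 other imprinted genes, 28 were tested: 2 were higher and 7 lower in the double knockdown, 6 higher and 7 lower in Msi1-knockdown cells, and 4 higher and 2 lower in Msi2-knockdown cells. The 9 calls of 28 in the double, 13 in the Msi1 and 6 in the Msi2 knockdown stand beside that background. Their median log2 change was -0.11 in the double, -0.14 in the Msi1 and 0 in the Msi2 knockdown. NAA60, an acetyltransferase gene, was higher in all 3, by 0.62 ± 0.06 (edgeR adjusted p = 2.78e-07) in the double, 0.55 ± 0.06 (1.46e-06) in the Msi1 and 0.29 ± 0.06 (0.00212) in the Msi2 knockdown. L3MBTL1 was lower in the double knockdown (-0.97 ± 0.17, adjusted p = 0.000369), the tumour suppressor RB1 in the Msi1 (-0.63 ± 0.07, 4.15e-07) and the double knockdown (-0.21 ± 0.07, 0.0128; 0.079 without double-knockdown replicate 1 and 0.0897 without control replicate 1) and WT1 in the Msi2 knockdown (-0.62 ± 0.16, 0.00485, and 0.256 with thinned libraries). COPG2, the neighbour of MEST on the opposite strand, was lower in the Msi1 knockdown (-0.50 ± 0.07, 1.2e-05).

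Of 25 listed neighbours of H19 and CDKN1C, 13 were tested: 4 were higher and 3 lower in the double knockdown, 1 higher and 2 lower in Msi1-knockdown cells, and 3 higher and 2 lower in Msi2-knockdown cells. The background was 51.9% called in the double, 39.3% in the Msi1 and 30.3% in the Msi2 knockdown. The tetraspanin gene CD81 was higher in the Msi1 (0.30 ± 0.07, edgeR adjusted p = 0.0023) and in the Msi2 knockdown (0.29 ± 0.07, 0.00368). In the double knockdown its value was 0.18 ± 0.07 (0.0402), which did not pass in 6 of 12 leave-outs (0.0513 to 0.186). The lysosomal protease gene CTSD was lower in the double knockdown (-0.39 ± 0.08, 0.000481). MRPL23-AS1, a noncoding RNA near H19 with only 9 to 73 counts per library, was also lower in the double knockdown (-0.97 ± 0.29, edgeR adjusted p = 0.00875). That call did not hold without control replicate 2 (0.0575), with thinned libraries (0.124) and with the trend covariate (-0.52, 0.282). Of the antisense, overlapping and host partners, 3 of 12 were tested, and 0 in the double, 2 in the Msi1 (COPG2 and KCNQ1) and 1 in the Msi2 knockdown (KCNQ1) passed.

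In the insulin-like growth factor pathway, 15 of 21 genes were tested: 5 were higher and 2 lower in the double knockdown, 6 higher and 2 lower in Msi1-knockdown cells, and 7 higher and 1 lower in Msi2-knockdown cells. All tested genes gave 51.9% in the double, 39.3% in the Msi1 and 30.3% in the Msi2 knockdown. The adaptor SHC1 was higher in all 3, by 0.61 ± 0.07 in the double (edgeR adjusted p = 6.96e-07), 0.39 ± 0.07 in the Msi1 (0.000158) and 0.55 ± 0.07 in the Msi2 knockdown (6.75e-06). GRB7, a relative of GRB10, was higher in the double (0.50 ± 0.07, 8.38e-06) and the Msi2 knockdown (0.93 ± 0.07, 1.34e-08), where GRB10 was lower, and was at 0.20 ± 0.07 in the Msi1 knockdown (0.0279; 0.0584 to 0.132 without Msi1-knockdown replicate 2 or control replicate 1 or 2). The insulin receptor INSR was lower in the double (-0.58 ± 0.09, edgeR adjusted p = 3.49e-05) and the Msi1 knockdown (-0.45 ± 0.09, 0.000668) and higher in the Msi2 knockdown (0.52 ± 0.09, 0.000217). The IGF-binding protein IGFBP4 was higher in the double (0.54 ± 0.09, edgeR adjusted p = 9.66e-05) and the Msi2 knockdown (0.94 ± 0.09, 4.44e-07). IGF2BP3, which binds IGF2 RNA, was higher in the double (0.43 ± 0.07, edgeR adjusted p = 4.27e-05), the Msi1 (0.43 ± 0.07, 5.95e-05) and the Msi2 knockdown (0.37 ± 0.07, 0.000429).

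Of the genes of imprint maintenance and DNA methylation, 21 of 26 were tested: 6 were higher and 9 lower in the double knockdown, 2 higher and 8 lower in Msi1-knockdown cells, and 1 higher and 1 lower in Msi2-knockdown cells. Beside these stand 51.9% of all tested genes in the double, 39.3% in the Msi1 and 30.3% in the Msi2 knockdown, and the 2 calls of 21 in the Msi2 knockdown lie below that share. TET3, which oxidises methylated cytosine, was higher in all 3, by 0.63 ± 0.07 in the double (edgeR adjusted p = 5.99e-07), 0.51 ± 0.07 in the Msi1 (1.07e-05) and 0.70 ± 0.07 in the Msi2 knockdown (4.11e-07). Its relative TET1 was lower in the double (-0.67 ± 0.10, edgeR adjusted p = 2.65e-05) and the Msi1 knockdown (-0.63 ± 0.11, 9.23e-05). UHRF1, which guides maintenance methylation, was higher in the double knockdown (0.44 ± 0.06, 7.8e-06).

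The let-7 list holds genes of a microRNA family that H19 RNA has been reported to bind. Of 16 genes 15 were tested: 7 were higher and 3 lower in the double knockdown, 6 higher and 5 lower in Msi1-knockdown cells, and 4 higher and 2 lower in Msi2-knockdown cells. The share over all tested genes was 51.9% in the double, 39.3% in the Msi1 and 30.3% in the Msi2 knockdown. The chromatin protein HMGA1 was higher in the double (0.84 ± 0.08, edgeR adjusted p = 6.67e-08) and the Msi1 knockdown (0.47 ± 0.08, 6.84e-05). In the Msi2 knockdown it was at 0.26 ± 0.08 (0.014), which did not pass without Msi2-knockdown replicate 1 (0.0762) or control replicate 1 (0.0503) or 3 (0.0612). LIN28A, which blocks let-7 processing, was low throughout, with 6 to 15 counts in double-knockdown, 13 to 47 in Msi1-knockdown, 12 to 29 in Msi2-knockdown and 32 to 61 in control libraries. It was lower in the double (-3.00 ± 0.36, edgeR adjusted p = 1.53e-06), the Msi1 (-1.19 ± 0.31, 0.00446) and the Msi2 knockdown (-2.24 ± 0.33, 3.63e-05). Among relatives of the members, 9 of 10 were tested: 2 were higher and 2 lower in the double, 4 higher and 2 lower in Msi1-knockdown cells, and 3 higher and 2 lower in Msi2-knockdown cells. The same background applies to them (51.9% in the double, 39.3% in the Msi1 and 30.3% in the Msi2 knockdown). The cyclin-dependent kinase inhibitor CDKN1A was higher by 1.95 ± 0.10 in the double (edgeR adjusted p = 2.61e-11), 1.2 ± 0.10 in the Msi1 (2.74e-08) and 0.54 ± 0.10 in the Msi2 knockdown (0.000553). CDKN1B (-0.44 ± 0.07, 2.48e-05) was lower in the Msi1 knockdown, as CDKN1C was, and was at -0.16 ± 0.06 in the double knockdown (0.0419, not passing in 7 of 12 leave-outs). PHLDA3, a relative of PHLDA2, was lower in the double (-0.64 ± 0.13, 0.000533) and the Msi1 knockdown (-0.95 ± 0.14, 2.3e-05). In the Msi2 knockdown it was at -0.40 ± 0.13 (0.0243), which did not pass without Msi2-knockdown replicate 2 (0.11) or control replicate 1 (0.117) or 3 (0.0504).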

How the data were processed

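The authors deposited estimated counts for each gene, as whole numbers with no scaling between libraries; the submitters' processing notes name kallisto 0.42.1, CASAVA 1.4 and the build hg19, without their roles. Neither transcript set nor strand is given in the sources used here. Per the labels' protocols, 200 ng of total RNA from sorted cells went into each library. No label says that replicates were separate cultures, and p-values therefore reflect the spread of these libraries alone. Replicates differed by more than sampling noise (chi-square per degree of freedom 3.65 to 33.7), and each counts as 1 sample.

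Genes passing filterByExpr (minimum count 10) were fitted with edgeR 4.0.16 in R 4.3.3: TMM scaling, 1 model of all 12 libraries (8 residual degrees of freedom), quasi-likelihood tests, two-sided, Benjamini-Hochberg over 15021 genes. CPM used TMM-scaled totals. The members and lists were chosen with earlier results of these data known. All 10 members are named, and up to 3 genes of each other list and comparison by smallest p among those passing, of which the text gives a part. Likeness to H19 used log2 CPM with 2 counts added. Lengths (99.3% of tested genes) and H19 sequence came from GENCODE 29, of another build than hg19. The alternatives were other scalings, DESeq2 1.42.0, other filters, only the compared groups, a replicate block, thinned libraries, leave-outs, the trend score and a length correction. The fit was tested on simulated counts.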

Additional observations from a re-analysis of the deposited data

Results flagged for a closer look

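These 6 results were picked out because the change in the double knockdown differed from the sum of the single changes by a test of that difference (edgeR's quasi-likelihood test, adjusted over all tested genes). The excess on the log2 scale was 0.86 for CDKN1C (adjusted p = 0.00363), 0.46 for GRB10 (0.00246) and 0.29 for IGF2 (0.0465). It was -1.03 for KCNQ1OT1 (0.00533), -0.84 for IGF2R (0.000221) and -0.66 for MEST (0.0427). Of all tested genes, 40.3% passed the same test, and the members were chosen with earlier results of these data known. The double-knockdown libraries also stood apart on the library trend, and with its score as a covariate the values were 0.27 for CDKN1C, 0.22 for GRB10, 0.54 for IGF2, -0.12 for KCNQ1OT1, -0.20 for IGF2R and -0.09 for MEST, of which that of IGF2 passed. With the transcript length correction KCNQ1OT1 was at -0.15 (0.272), and with thinned libraries CDKN1C was at 0.42 (0.373). The IGF2 value did not pass with DESeq2 (0.0524), upper-quartile scaling (0.0844), no filter beyond 1 count (0.0577), the stricter filter (0.0952) or thinned libraries (0.0814). It also did not pass in 8 of 12 leave-outs. The MEST value did not pass with DESeq2 (0.0683) or in 8 of 12 leave-outs.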

How the results depend on the processing

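Calls among the 8 tested members ranged over the leave-outs from 3 to 6 in the double, 4 to 7 in the Msi1 and 2 to 6 in the Msi2 knockdown against control. With the trend covariate 2 members differed between double and Msi1, 1 between double and Msi2 and 1 from additivity; with the length correction 2 differed between double and Msi2, and under the stricter filter 3 departed from additivity (MEST and CDKN1C had no value there). The H19 values with the trend covariate were -0.54 (double) and -1.17 (Msi1) against control, 0.62 (double against Msi1), -0.25 (double against Msi2) and 0.92 (excess over additivity); the cause was not tested. Signs turned with the trend covariate for IGF2 (0.13) and CDKN1C (-0.33), KCNQ1OT1 (0.12), MEST (0.38) and GRB10 (-0.09) between double and Msi2; for IGF2R (0.00), MEST (0.36) and GRB10 (-0.01) between double and Msi1; for IGF2R (0.05), CDKN1C (-0.07) and KCNQ1OT1 (0.12) between double and control; for IGF2R between Msi2 and Msi1 (0.16, edgeR adjusted p = 0.00484); and for the excess of PHLDA2 (-0.17). With the length correction they turned for IGF2 (0.07), KCNQ1OT1 (0.03) and MEST (0.00) between double and Msi2, IGF2R between Msi2 and Msi1 (0.01) and KCNQ1OT1 between Msi2 and control (-0.07). With thinned libraries they turned for CDKN1C (-0.04, double against Msi2), KCNQ1OT1 (-0.01) and TH (-0.16, both Msi2 against control). MEST between double and Msi2 was 0.01 with DESeq2 size factors and with DESeq2, and 0.00 with only the compared groups and with the replicate block. Over the leave-outs, values that turned ranged for double against Msi2 from -0.09 to 0.00 (IGF2), -0.17 to 0.12 (MEST) and -0.10 to 0.21 (CDKN1C), for Msi2 against Msi1 from -0.13 to 0.05 (IGF2R) and -0.29 to 0.02 (MEST), and for KCNQ1OT1 in Msi2 against control from -0.08 to 0.23. Over all genes the Msi2 calls numbered 3013 without control replicate 1, against 4545 with it, and with the trend covariate 718 genes differed between double and Msi1 (8419 without it), 2697 between double and Msi2 (6792) and 592 from additivity (6058).

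Same-numbered libraries did not deviate together in every pair (r from -0.54 to 0.70), and 7 of 12 libraries correlated best with their own number, so the numbers were not taken to pair the samples. With the replicate block 6 members were called in the double, 7 in the Msi1 and 6 in the Msi2 knockdown against control; the added call was KCNQ1OT1 in the double knockdown (-0.39, edgeR adjusted p = 0.00268). PLAGL1, MEST and CDKN1C had the lowest counts of the members, and calls of GRB10, PHLDA2, PEG10 and IGF2 were also lost with thinned libraries.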
